A study of Rattus norvegicus with 35 samples.

Results

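Sfn, Tp53inp1 and 8 other genes of p53 signalling and growth arrest were followed in primary rat hepatocytes exposed to 3 triazole fungicides. The 10 genes listed were Sfn, Tp53inp1, Cdkn1a, Ccng1, Mdm2, Gadd45a, Btg2, Bax, Phlda3 and Ccne1, and their probe sets were found by the gene symbol in the platform's annotation. The array measured 8 of the 10 genes, with 11 of the 31099 probe sets of the value table. The only probe set of Bax, which promotes the release of mitochondrial death factors, also names another gene and was not used. No probe set is listed for Btg2, an antiproliferative p53 target. Sfn, Tp53inp1 and Ccne1 were chosen by their measured values at 100 uM propiconazole against DMSO, and the list was completed with known p53 targets. The members' values in that group are therefore given as a description, with no test. Where genes of other lists are said to be called there, the fit's call is given as a description too.

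The p53 protein is a transcription factor that accumulates when DNA is damaged or a cell is otherwise stressed. It switches on genes that stop the cell cycle (Cdkn1a, Sfn, Gadd45a), genes tied to cell death and autophagy (Bax, Tp53inp1), and genes that restrain p53 itself (Mdm2, Ccng1). Hepatocytes are mostly quiescent, and many p53 targets also answer to other stress pathways, so the level of a target transcript is not by itself a measure of p53 activity.

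The cells were hepatocytes taken from rats and kept in culture, and every group was exposed through the medium for 72 h. Controls received DMSO, the solvent, at 0.1%, and the triazoles myclobutanil, propiconazole and triadimefon were each given at 10, 30 and 100 uM. Phenobarbital at 200 uM and PCN at 30 uM served as positive controls. The 12 groups held 3 arrays each, except PCN with 2, making 35 arrays. The submitters call them biological replicates. Each array also carries the code Rs256, Rs293 or Rs304, 1 array per code in a group (PCN has none of Rs256), whose meaning is not explained, and neither strain, sex nor age of the animals is stated. The triazoles share a triazole ring and a chlorinated phenyl ring. They differ in that triadimefon carries a ketone, myclobutanil a nitrile and propiconazole a dioxolane ring.

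Values are units of the deposited log-like score after quantile normalization, and an array's median lies near -0.01. If the added control transcripts had their standard concentrations of 5, 25 and 100 pM, a doubling corresponded to 0.49 units (SD 0.0243 over 35 arrays); no fold changes are given because the base of the score is not stated. The hepatocyte markers passed the expression filter for 14 of 15 genes, and their summed level lay between 44.1 and 45.4 on the DMSO arrays. 1 array, propiconazole 30 uM Rs293, had a wider spread of deposited values (SD 0.941, next highest 0.754). In these bulk samples, fewer cells of a type and less RNA per cell cannot be told apart.

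The promoters of 8 of the 10 genes were in the RefSeq table (assembly GRCr8), as 250 bases before to 50 after the annotated start. Sfn is shown because it differed most from its control, and Cdkn1a, Ccng1 and Gadd45a because their windows held a p53 half-site. Capitals mark the motif found, and each sequence is written 5′ to 3′ on the strand of the gene.
Sfn promoter, chr5:151111805-151112104, minus strand: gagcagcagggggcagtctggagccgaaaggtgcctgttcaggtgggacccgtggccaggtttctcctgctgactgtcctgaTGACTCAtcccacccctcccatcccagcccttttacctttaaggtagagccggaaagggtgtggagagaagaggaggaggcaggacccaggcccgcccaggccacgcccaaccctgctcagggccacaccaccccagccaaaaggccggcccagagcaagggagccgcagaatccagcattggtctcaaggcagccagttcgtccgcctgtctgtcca
Cdkn1a promoter, chr20:7150682-7150981, plus strand: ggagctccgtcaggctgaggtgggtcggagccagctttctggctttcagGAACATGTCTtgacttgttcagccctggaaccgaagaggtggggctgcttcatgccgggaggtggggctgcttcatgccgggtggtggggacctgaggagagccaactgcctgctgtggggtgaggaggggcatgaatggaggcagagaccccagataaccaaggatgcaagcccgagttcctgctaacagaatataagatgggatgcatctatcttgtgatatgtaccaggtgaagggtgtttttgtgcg
Ccng1 promoter, chr10:25684827-25685126, minus strand: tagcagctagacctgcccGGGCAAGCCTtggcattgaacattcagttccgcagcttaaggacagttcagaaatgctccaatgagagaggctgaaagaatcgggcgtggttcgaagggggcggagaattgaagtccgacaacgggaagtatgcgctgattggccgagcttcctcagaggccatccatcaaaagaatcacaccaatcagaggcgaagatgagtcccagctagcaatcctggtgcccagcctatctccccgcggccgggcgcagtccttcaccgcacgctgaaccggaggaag
Gadd45a promoter, chr4:97486750-97487049, minus strand: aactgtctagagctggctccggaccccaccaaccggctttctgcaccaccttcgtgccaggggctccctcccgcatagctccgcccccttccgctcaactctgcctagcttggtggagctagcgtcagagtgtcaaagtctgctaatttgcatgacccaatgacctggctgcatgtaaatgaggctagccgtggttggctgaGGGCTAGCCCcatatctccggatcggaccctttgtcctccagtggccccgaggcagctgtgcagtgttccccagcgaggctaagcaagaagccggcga
The Sfn window held TGACTCA, the AP-1 motif, at -168 from the start. That motif, searched on both strands, was in 4.63% of all 33469 promoter windows. The p53 half-site was in 7.98% of them, and its matches began at -201 in Cdkn1a, -232 in Ccng1 and -48 in Gadd45a. The E2F motifs TTTGGCGC and TTTCGCGC, in 0.792% of windows, matched no member. Mdm2, Btg2, Phlda3 and Ccne1 held none of these letters. A match is only a description of the window.

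Sfn, which encodes 14-3-3 sigma, an epithelial protein that holds cyclin-dependent kinase complexes in the cytoplasm, was highest at 100 uM propiconazole. The 3 DMSO arrays read 0.19 (Rs256), -0.04 (Rs293) and 0.04 (Rs304). The 3 propiconazole 100 uM arrays read 1.64, 1.15 and 1.45 in the same order of codes. All 3 lay far above every DMSO array. The means were 0.06 (SD 0.114, n = 3) and 1.41 (SD 0.246, n = 3), a difference of 1.35 (SE 0.160, 95% interval 1.02 to 1.68). Within the codes the difference was 1.45 in Rs256, 1.19 in Rs293 and 1.41 in Rs304. Leaving out any 1 code or any 1 DMSO array kept it between 1.30 and 1.43.

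**Figure D1:**
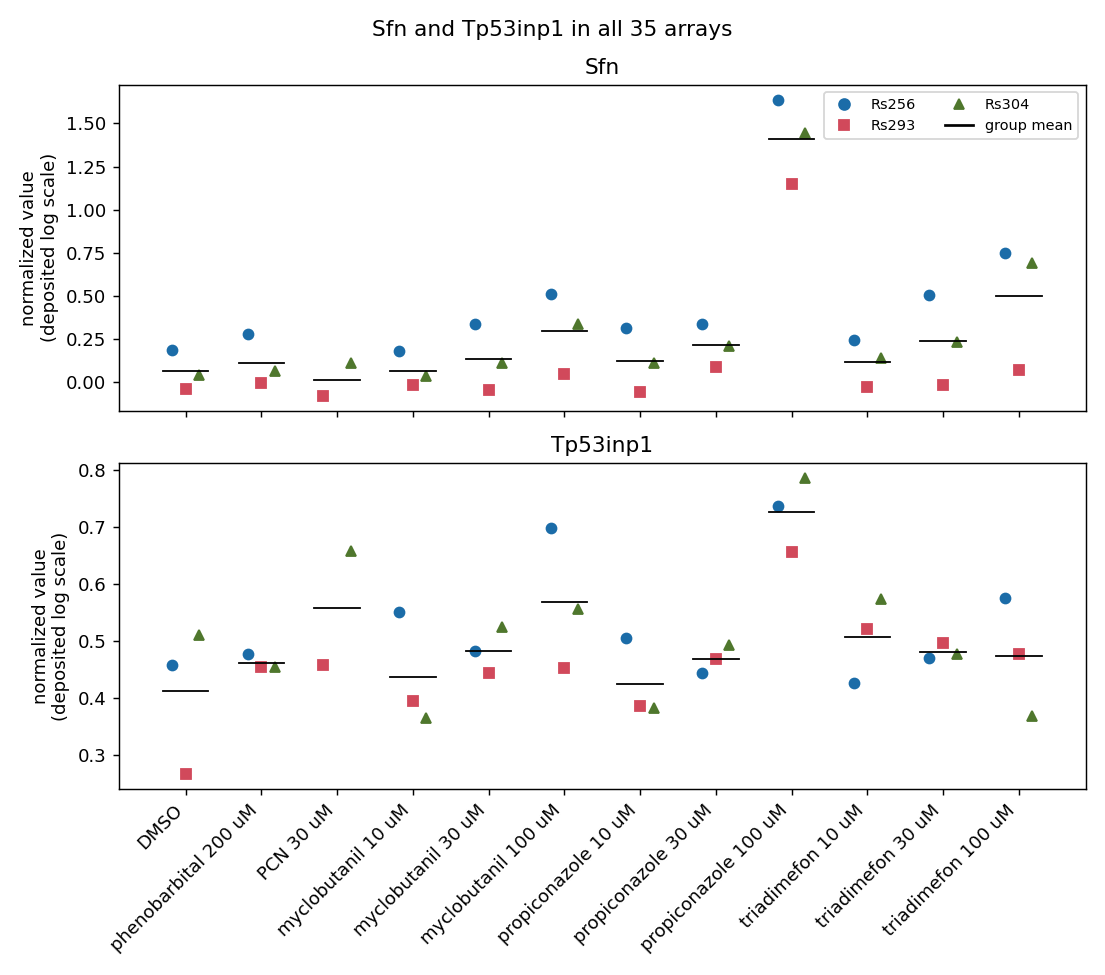
Normalized values of Sfn and Tp53inp1 (vertical axis, score units) on every array of the 12 groups; a point is an array, shaped by its Rs code, and a bar is the group mean. The propiconazole 100 uM arrays of Sfn lie between 1.15 and 1.64, above all other arrays, whose highest value is 0.75.

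Sfn at 100 uM triadimefon read 0.75 (Rs256), 0.07 (Rs293) and 0.69 (Rs304). The Rs256 and Rs304 arrays were above all DMSO arrays, and the Rs293 array lay within the DMSO range. The mean difference from DMSO was 0.44 (SE 0.160) and was not called by limma with Benjamini-Hochberg adjustment over 10490 genes (adjusted p = 0.189). With the Rs code as a replicate block the same difference had SE 0.0702 and was called (block adjusted p = 0.000215). Within the codes Sfn was higher by 0.56, 0.11 and 0.65. Without the Rs293 arrays the unblocked fit gave 0.60 and called it (limma adjusted p = 0.0403). In the blocked fit the value was 0.33 without Rs304 and was not called (limma adjusted p = 0.0884).

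Sfn at 100 uM myclobutanil read 0.51 (Rs256), 0.05 (Rs293) and 0.34 (Rs304). These arrays again ran in the order of the codes and overlapped the DMSO arrays in Rs293 alone. The difference was 0.24 (SE 0.160; limma adjusted p = 0.697), and with the block it was called (block adjusted p = 0.0326). It was 0.32, 0.08 and 0.30 within the codes. The blocked call was lost without Rs256 (0.19, limma adjusted p = 0.285) and without Rs304 (0.20, limma adjusted p = 0.388).

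At 10 and 30 uM limma called no difference of Sfn from its control, with or without the block. Triadimefon at 30 uM read 0.51, -0.02 and 0.23, and propiconazole at 30 uM read 0.34, 0.09 and 0.21. Their differences from DMSO were 0.18 and 0.15 (SE 0.160 each; block adjusted p = 0.242 and 0.295). Within the codes both were above DMSO in all 3, by 0.32, 0.02 and 0.19 with triadimefon and by 0.15, 0.13 and 0.17 with propiconazole; 19.6% and 18.9% of all genes were higher in every code there. From 30 to 100 uM propiconazole Sfn was higher by 1.20 on average, and by 1.30, 1.06 and 1.24 within the codes. The same step was 0.26 for triadimefon and 0.16 for myclobutanil (SE 0.160 each), and limma called neither. By mean level the groups ran from PCN (0.02) and DMSO (0.06) through myclobutanil 10 uM (0.07), phenobarbital (0.11), triadimefon 10 uM (0.12), propiconazole 10 uM (0.12), myclobutanil 30 uM (0.14), propiconazole 30 uM (0.21) and triadimefon 30 uM (0.24) to the 3 triazoles at 100 uM. Neighbours in that order overlapped array by array until the last step, to propiconazole 100 uM.

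**Figure D2:**
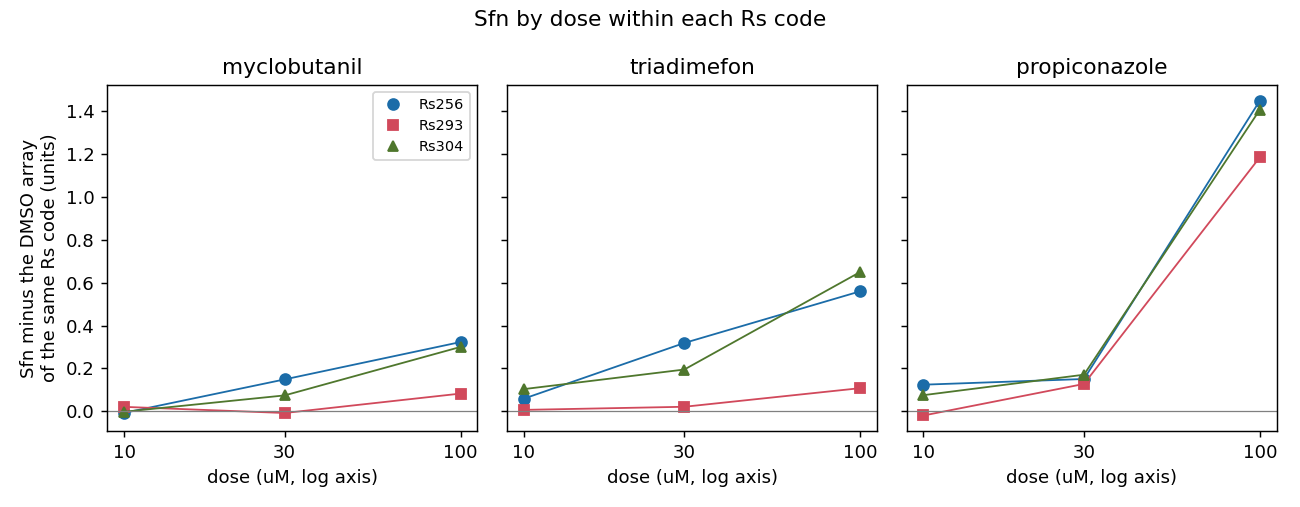
Sfn minus the DMSO array of the same Rs code (vertical axis, score units) against dose in uM (horizontal log axis), a panel per triazole and a line per Rs code; the grey line marks no difference. At 100 uM the 3 lines end at 1.19 to 1.45 with propiconazole, 0.11 to 0.65 with triadimefon and 0.08 to 0.32 with myclobutanil.

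The slope of Sfn per 10-fold dose was 1.30 (SE 0.160) for propiconazole, given without a test. It was 0.39 (SE 0.160) for triadimefon (limma adjusted p = 0.625; block adjusted p = 0.00441) and 0.23 (SE 0.160) for myclobutanil (limma adjusted p = 0.707; block adjusted p = 0.0449). Of the 16 slopes of the 8 genes for these 2 compounds, limma called 0 (0.0763% of all genes for triadimefon, 0.248% for myclobutanil) and 2 had an unadjusted p under 0.05 (6.93% and 9.34% of all genes). With the block 3 were called, the 2 of Sfn and that of Ccne1 with triadimefon (2.93% and 6.63% of all genes). Phenobarbital arrays read 0.28, -0.01 and 0.07 and PCN arrays -0.08 (Rs293) and 0.11 (Rs304). Both sets overlapped DMSO.

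Other measures also differed from DMSO on the propiconazole 100 uM arrays, on which Sfn was high. The summed hepatocyte markers were 42.2 to 44.00 there, below the 44.1 to 45.4 of DMSO. With PCN, whose mean Sfn was the lowest of all groups, they were 42.4 to 44.2. Of 14 cholangiocyte and epithelial markers listed 10 passed the filter, and Spp1 and Krt23 were above the array median on 0 arrays. The summed level of these 10 was 11.1 to 11.2 with propiconazole at 100 uM and 11.5 to 15.3 with DMSO. It was 11.4 to 12.3 with triadimefon and 10.9 to 12.4 with myclobutanil at 100 uM. Of these markers 1 was called lower with propiconazole at 100 uM, where 5.6% of all genes were. It was Onecut1, a hepatic transcription factor (-0.82, SE 0.177). The summed level of the 7 macrophage markers that passed, of 14 listed, ranged from 3.41 to 4.58 against 2.16 to 4.27 with DMSO. At 100 uM propiconazole 2 of the 7 had a mean above DMSO, and the median change of the 7 was -0.01. Of this list Cd163, Adgre1, Ptprc, Tyrobp, C1qa and C1qc were above the array median on 0 arrays. Cd14, Lyz2 and C1qb were above it on 35, Cd68 and Aif1 on 32, Clec4f on 21 and Csf1r on 9. Cd68, a lysosomal protein of macrophages on the same list, was called higher with propiconazole at 100 uM (0.80, SE 0.198) and was 0.39 higher with triadimefon (limma adjusted p = 0.425; block adjusted p = 0.00338). The summed level of the 10 stellate cell markers that passed, of 14 listed, was 2.80 to 3.88 against 3.03 to 5.003, and 1 of 12 endothelial markers passed. The Actb 3′ minus 5′ value, a sign of RNA integrity, was 0.570 to 0.725 with propiconazole at 100 uM against 0.744 to 0.810 with DMSO. PCN (0.593 and 0.601) and, at 10 uM, propiconazole (0.632 to 0.656) and myclobutanil (0.665 to 0.734) were below DMSO too. No Sfn difference was called in those groups, but without the block only 0% to 0.00953% of all genes were called there. With triadimefon at 100 uM the Actb value was 0.907 (Rs256), 0.738 (Rs293) and 0.912 (Rs304). It was above the DMSO array in the codes in which Sfn was higher by 0.56 and 0.65. With myclobutanil it was 0.724, 0.834 and 0.610. The part of these in the Sfn differences was not tested.

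Tp53inp1, a stress protein that acts with p53 and in autophagy, differed less than Sfn. Its DMSO arrays read 0.46 (Rs256), 0.27 (Rs293) and 0.51 (Rs304), and its propiconazole 100 uM arrays 0.74, 0.66 and 0.79. All 3 propiconazole arrays were above all DMSO arrays. The difference was 0.31 (SE 0.0669, 95% interval 0.18 to 0.45), and within the codes 0.28, 0.39 and 0.28.

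Tp53inp1 was not called for any other treatment. At 100 uM myclobutanil it read 0.70, 0.45 and 0.56, which overlapped DMSO, and the difference was 0.16 (SE 0.0669; limma adjusted p = 0.376; block adjusted p = 0.100). With triadimefon at 100 uM it read 0.58, 0.48 and 0.37, a difference of 0.06 (SE 0.0669; limma adjusted p = 0.813), whose sign turned to -0.01 without Rs293. The PCN arrays read 0.46 and 0.66, and the phenobarbital arrays lay between 0.45 and 0.48. DMSO had the lowest group mean (0.41, SD 0.129), the groups other than propiconazole 100 uM had means from 0.42 to 0.57, and propiconazole 100 uM had the highest (0.73, SD 0.0652). All neighbours in that order overlapped, the last pair because 1 myclobutanil 100 uM array (0.70) lay above the lowest propiconazole 100 uM array (0.66).

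Mdm2 encodes the ubiquitin ligase that marks p53 for degradation and is itself a p53 target. Its brightest probe set read 0.96, 1.30 and 1.20 with DMSO and 1.36, 1.35 and 1.42 at 100 uM propiconazole, groups that did not overlap. The difference was 0.22 (SE 0.101), but only 0.05 within Rs293 against 0.40 in Rs256 and 0.22 in Rs304. The other probe sets differed by 0.32 (SE 0.0630) and 0.25 (SE 0.0986). Their arrays read 0.93, 1.01 and 1.15 with DMSO against 1.38, 1.30 and 1.35, and 0.36, 0.54 and 0.53 against 0.63, 0.72 and 0.84, so neither pair overlapped. With triadimefon at 100 uM the brightest set differed by 0.17 (SE 0.101; limma adjusted p = 0.536), and by 0.063 to 0.25 when a code or DMSO array was left out. The other probe sets differed by 0.15 (SE 0.0630; limma adjusted p = 0.292) and -0.07 (SE 0.0986; limma adjusted p = 0.873) there, so the 3 disagreed in sign. With myclobutanil the brightest set differed by 0.07 (SE 0.101; limma adjusted p = 0.908).

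Ccng1, cyclin G1, a p53 target that recruits a phosphatase to Mdm2, read 2.25, 2.41 and 2.35 with DMSO and 2.48, 2.73 and 2.52 at 100 uM propiconazole. The 2 groups did not overlap, and the difference was 0.24 (SE 0.0768). The triadimefon 100 uM arrays, at 2.46, 2.44 and 2.46, also lay just above DMSO, but the difference of 0.11 (SE 0.0768) was not called (limma adjusted p = 0.626; block adjusted p = 0.180). In PCN Ccng1 lay below DMSO on both arrays, between 2.15 and 2.23, with a difference of -0.15 that was not called; 10.9% of all genes lay below DMSO without overlap in PCN.

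Ccne1 encodes cyclin E1, which drives entry into S phase. It read 0.17, 0.29 and 0.20 with DMSO and 0.36, 0.39 and 0.38 at 100 uM propiconazole, a difference of 0.15 (SE 0.0472). At 100 uM triadimefon it read 0.34, 0.33 and 0.35, and these arrays too were all above DMSO. That difference was 0.12 (SE 0.0472; limma adjusted p = 0.253) and was called with the block (block adjusted p = 0.0143). It was 0.17, 0.04 and 0.15 within the codes, and the blocked call was lost without Rs256 (0.09, limma adjusted p = 0.215) and without Rs304 (0.10, limma adjusted p = 0.295). With myclobutanil at 100 uM Ccne1 read 0.25, 0.29 and 0.25 and overlapped DMSO.

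Cdkn1a, the p21 inhibitor of cyclin-dependent kinases and a classic p53 target, overlapped its control with all 3 triazoles at 100 uM. It read 1.85, 1.64 and 1.44 with DMSO, 1.94, 1.53 and 1.46 at 100 uM propiconazole, 1.75, 1.71 and 1.70 with triadimefon and 1.74, 1.50 and 1.69 with myclobutanil. The propiconazole difference was 0.00, with a 95% interval from -0.26 to 0.25 in the fit without the Rs code. Differences inside that interval were not excluded by that fit. The other Cdkn1a probe set read 0.78, 0.67 and 0.67 with DMSO against 0.98, 0.61 and 0.89 at 100 uM propiconazole and also overlapped.

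Gadd45a, a stress protein of cell cycle arrest and DNA repair, read 2.32, 1.97 and 2.06 with DMSO and 2.58, 2.17 and 2.05 at 100 uM propiconazole. These groups overlapped, with a difference of 0.15 (95% interval -0.25 to 0.54 in the fit without the Rs code). The propiconazole array was above the DMSO array within Rs256 and Rs293 and slightly below it within Rs304. Phlda3, a p53 target that blocks Akt signalling at the membrane, read 1.07, 1.09 and 1.27 with DMSO and 1.14, 0.95 and 1.11 at 100 uM propiconazole, a difference of -0.08 (95% interval -0.23 to 0.08). With myclobutanil at 100 uM Phlda3 read 1.08, 0.83 and 1.07, a difference of -0.15 (SE 0.0752; limma adjusted p = 0.492; block adjusted p = 0.0945).

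**Figure D3:**
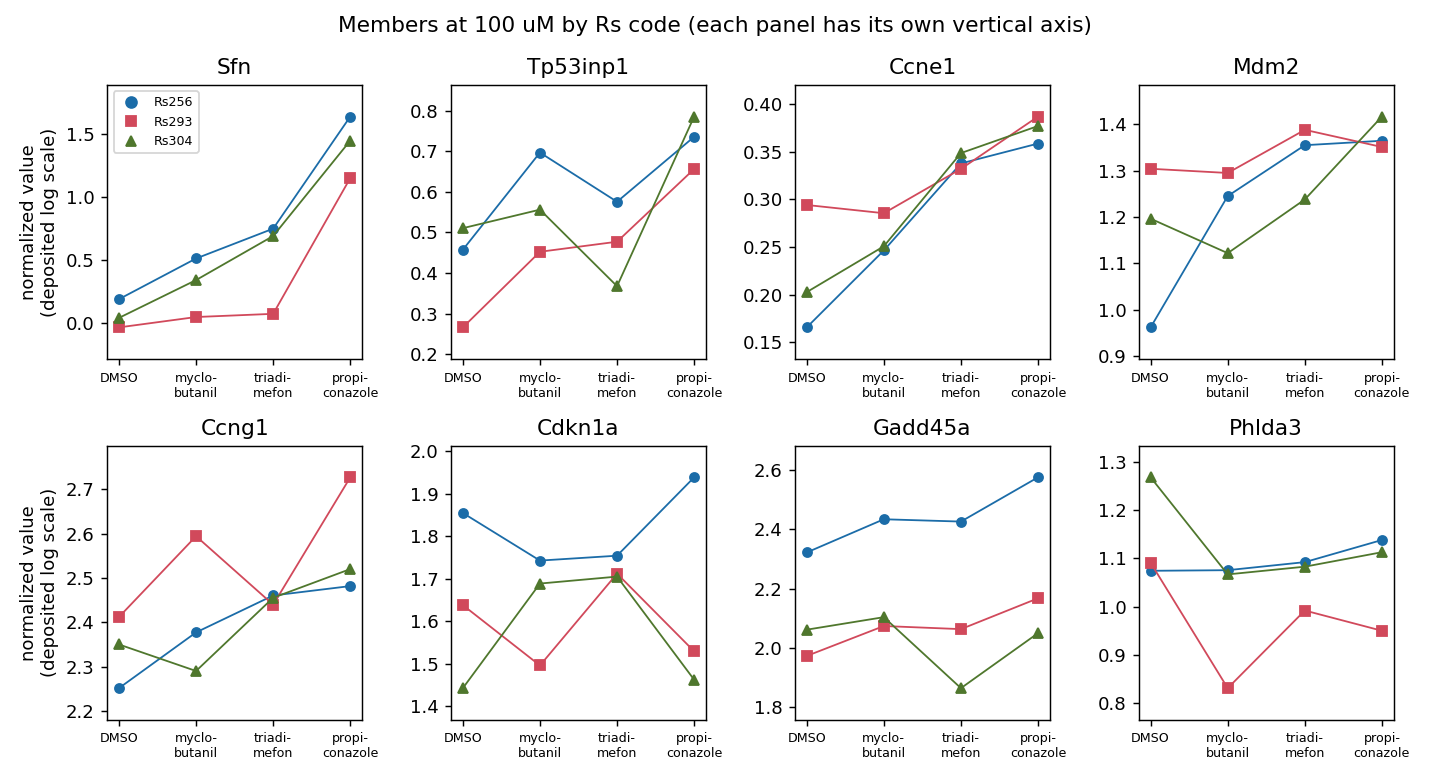
Normalized values (vertical axis, score units) of the 8 measured genes with DMSO and with each triazole at 100 uM, a panel per gene with its own scale; lines join arrays of the same Rs code. Sfn, Tp53inp1, Ccng1, Mdm2 and Ccne1 are higher with propiconazole than with DMSO in all 3 codes, while Cdkn1a, Gadd45a and Phlda3 are not. Of all tested genes 26.2% are higher in every code there.

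With propiconazole at 100 uM, 5 of the 8 measured genes (Sfn, Tp53inp1, Ccng1, Mdm2 and Ccne1) were above DMSO without overlap, which 14.4% of all tested genes were; 12% of all tested genes were called in that comparison. Since that contrast chose members, nothing is read from the count. With triadimefon at 100 uM 2 of 8 (Ccng1 and Ccne1) lay above DMSO without overlap, against 11.8% of all genes. With myclobutanil at 100 uM 0 of 8 did, against 6.97%. The median change over the 8 genes was 0.19 with propiconazole, 0.10 with triadimefon and 0.07 with myclobutanil, beside 0.01 over all tested genes in each.

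Over the 10 treatments other than propiconazole at 100 uM, limma without the Rs code called 0 of 80 differences from DMSO. That fit leaves out the pairing by code, so its count does not show that the paired differences were absent. In it 3 had an unadjusted p under 0.05 (Sfn and Ccne1 with triadimefon and Tp53inp1 with myclobutanil at 100 uM, where 12.5% and 10.3% of all genes did). Of all tested genes 1.83% were called with triadimefon at 100 uM and 1.21% with myclobutanil at 100 uM. In the other 8 treatments 0% to 0.0381% were called: 0.0381% with propiconazole and 0.0286% with triadimefon at 30 uM, and 0.00953% in each of myclobutanil at 30 uM, propiconazole at 10 uM, phenobarbital and PCN. With the block 3 of the 80 were called, namely Sfn with both compounds and Ccne1 with triadimefon, where the block called 11.8% and 9.92% of all genes with triadimefon and myclobutanil at 100 uM. All these comparisons share the same 3 DMSO arrays, which also entered the contrast that chose Sfn, Tp53inp1 and Ccne1. The 3 unadjusted hits and the 3 blocked calls all fell on these genes, so these tests are not independent of that choice.

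**Figure D4:**
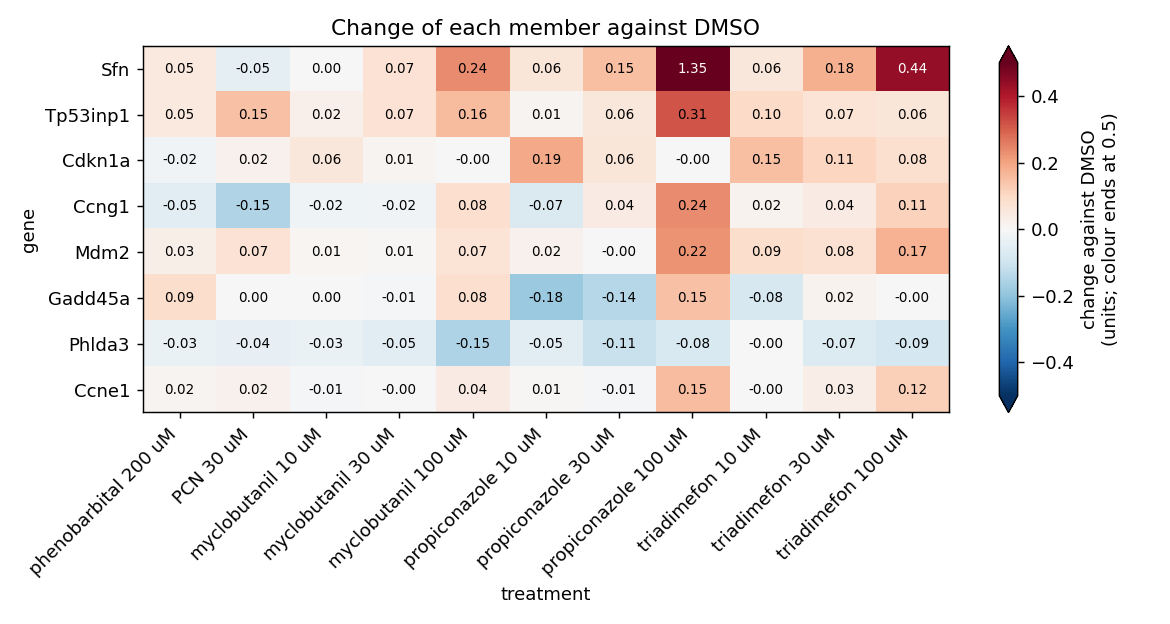
Difference from DMSO (score units, printed in each cell) of the 8 measured genes (vertical) in the 11 treatments (horizontal); the colour scale ends at 0.5 in either direction. The largest value is 1.35, Sfn with propiconazole at 100 uM.

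Set against each other at 100 uM, the compounds differed most in Sfn. Propiconazole arrays were above triadimefon arrays by 0.91 (SE 0.160; 0.89, 1.08 and 0.76 within the codes), and myclobutanil minus propiconazole was -1.11 (SE 0.160; -1.13, -1.10 and -1.11 within the codes). Tp53inp1 was 0.25 higher with propiconazole than with triadimefon, and myclobutanil minus propiconazole was -0.16 (SE 0.0669 each). These pairs hold the group that chose the members and have no test. Of the 9 compound pairs at matched dose, 7 were tested. Between myclobutanil and triadimefon at 100 uM 0 of 8 genes were called by limma, 0 had an unadjusted p under 0.05, and 0% of all genes were called. For Sfn that difference was -0.20 (95% interval -0.53 to 0.13). Each Ccne1 array of myclobutanil was below each of triadimefon, a difference of -0.08 (95% interval -0.18 to 0.02; not called by limma; block adjusted p = 0.704); 2.99% of all genes were lower there without overlap. The 6 pairs at 10 and 30 uM gave 0 calls of 48, 0 at an unadjusted p under 0.05, and 0% of all genes called.

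Levels of several members differed between the Rs codes across all groups. In a fit with group and code, chosen after these values were seen, Sfn was 0.37 lower in Rs293 than in Rs256, a difference of -0.37 (SE 0.0363; limma adjusted p = 3.27e-09). Gadd45a differed by -0.33 between the same codes and by -0.41 between Rs304 and Rs256. Mdm2 ran the other way, at 0.20 higher in Rs293 than in Rs256. The fit called 7 of 8 members between Rs293 and Rs256, where 59% of all genes were called, 6 of 8 between Rs304 and Rs256 (56%) and 5 of 8 between Rs304 and Rs293 (31.4%). Of the 35 arrays, Sfn was above the array median in 27, and the 8 others were all of Rs293.

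After the code means were subtracted, Sfn and Ccne1 correlated at r = 0.83 over 35 arrays and 0.79 over the 32 without propiconazole 100 uM. The code means were taken over all 35 arrays in both cases, so they still held the propiconazole 100 uM arrays. Sfn and Tp53inp1 correlated at 0.66, and at 0.09 without those 3 arrays, so their likeness rested on that group. Sfn and Cdkn1a correlated at -0.11. The tested genes most like Sfn by the same measure were Serpina3c (0.97), Sdcbp2 (0.97), Serpina3l (0.95), Cd68 (0.94) and B4galt1 (0.93), which kept 0.76 to 0.91 over the 32 arrays. Those most like Tp53inp1 were Niban1 (0.76), Ube2j1 (0.75), Stard4 (0.74), Get4 (0.74) and Neu1 (0.73), with 0.45 to 0.51 over the 32 arrays. These correlations are descriptions across arrays that share codes and treatments.

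A wider list of 53 p53 pathway genes had 39 on the array, of which 36 passed the filter. With triadimefon at 100 uM 1 of 36 rose, against 0.867% of all genes called higher. It was Dram1, a lysosomal p53 target of autophagy, which rose by 0.50 (SE 0.0767; limma adjusted p = 0.000948). The call was lost without Rs256 (0.44, limma adjusted p = 0.0643) and without Rs304 (0.53, limma adjusted p = 0.0845). With the block 3 of 36 rose, where 6.16% of all genes did, namely Bcl2l1, an inhibitor of apoptosis, by 0.29 and Gadd45b, a relative of Gadd45a, by 0.54 beside Dram1. With myclobutanil at 100 uM 0 of 36 were called, where 1.21% of all genes were. With the block 3 rose there, where 5.05% of all genes did, again Dram1 (0.27), Bcl2l1 (0.19) and Gadd45b (0.62). With propiconazole at 100 uM, as a description, 3 of 36 were called higher and 1 lower without the block. Of all genes 6.37% and 5.6% were, so in that fit the share called was near the background. Dram1 was higher by 0.55 (SE 0.0767), the stress cytokine gene Gdf15 by 0.66 (SE 0.168) and Sesn2, an inhibitor of mTORC1, by 0.23 (SE 0.0660), while Mdm4, a partner of Mdm2, differed by -0.17 (SE 0.0464). The number called there was between 1 and 12 over the alternative settings, and 1 when only the groups compared entered the fit. With the block 12 were called, 10 higher and 2 lower. Of all genes the block called 29.3%, and it called 15.7% higher. The median change over the 36 genes was 0.04, -0.01 and -0.01 for propiconazole, triadimefon and myclobutanil, beside 0.01 over all genes.

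Sfn belongs to the 14-3-3 family of phosphoprotein-binding adaptors. Of the 6 other family genes, all of which passed the filter, 0 were called with any triazole at 100 uM. Of all genes 12% were called with propiconazole, 1.83% with triadimefon and 1.21% with myclobutanil there. With the block, which called 29.3% of all genes at 100 uM propiconazole, Ywhag was called higher (0.16) and Ywhab lower (-0.13). Of 46 cell cycle genes, 43 were on the array and 24 passed the filter. With 100 uM propiconazole 2 of these were called higher, where 6.37% of all genes were. They were Cdkn3, a phosphatase of Cdk2 (0.25, SE 0.0602), and Gmnn, which blocks replication licensing (0.20, SE 0.0359). With triadimefon or myclobutanil at 100 uM 0 were called, where 1.83% and 1.21% of all genes were. With the block 7 were called higher (15.7% of all genes) and 2 lower with propiconazole, where 29.3% of all genes were called in either direction. With triadimefon 1 rose, Gmnn (0.11, block adjusted p = 0.0289), where 6.16% of all genes did. With myclobutanil the block called 0, where it called 9.92% of all genes.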

How the data were processed

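Total RNA of 35 cultures was hybridized to Affymetrix rat expression arrays, per the labels' protocols. The deposited values are a score per probe set on a log-like scale; its base, summarisation and normalization are not given in the sources used here. Arrays were quantile-normalized. Probe sets were named from the platform annotation: 20826 name 1 gene, 436 several and 9780 none. A gene was represented by its brightest probe set naming it alone (11 probe sets for the 8 measured members). Of 14217 genes, 10490 lay above the array median in at least 2 arrays and were tested. limma 3.58.1 (R 4.3.3) fitted 1 mean per group over all arrays; p-values were two-sided and adjusted by Benjamini-Hochberg over all tested genes within a comparison, with a threshold of 0.05. The fit without the Rs code was tested on simulated data that held no code effect, so that test did not cover the pairing or the block.

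All members are described; of the other lists, genes called in a comparison are named, up to 4 per list and direction by size of change, and for Sfn and Tp53inp1 the 5 genes of highest correlation. The members and lists were chosen with earlier results of these data known. The Rs code entered as a replicate block in an alternative fit: same-code arrays of compared groups deviated together (r 0.277 to 0.953 over 68 pairs, median 0.699), so the codes pair the samples. Unless another fit is named, SEs and intervals are of the fit without the code, which does not use this pairing. With triadimefon at 100 uM the SE was 0.160 without and 0.0702 with the block for Sfn. For Tp53inp1 it was 0.0669 and 0.0596. A difference not called without the block is therefore not shown to be absent. Other alternatives were the values as deposited, median centring, no filter, single or averaged probe sets, fewer groups, and leaving out each code, each DMSO array or the array of wide spread. Calls rest on 2 or 3 arrays per group, which bounds their precision.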

Additional observations from a re-analysis of the deposited data

How the results depend on the processing

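With the replicate block, the calls among 80 differences from DMSO went from 0 to 3, and among 16 dose slopes of myclobutanil and triadimefon from 0 to 3. Leaving out a code or array gave 0 to 1 of the former, the 1 being Sfn with triadimefon without Rs293. The calls between compounds stayed at 0 under every alternative run. The differences of Sfn and Tp53inp1 with propiconazole at 100 uM kept their direction throughout (1.32 and 0.32 on the values as deposited). The block changed no other call of a member in the comparisons tested. Signs near 0 turned in these cases, whose cause was not tested. On the values as deposited and with median centring, Cdkn1a with myclobutanil at 100 uM was 0.025 and 0.016, and Gadd45a with triadimefon was 0.10 in both. Leaving out a code or DMSO array gave -0.13 to 0.10 for Cdkn1a and -0.042 to 0.14 for Mdm2 with myclobutanil. With triadimefon it gave -0.012 to 0.16 for Tp53inp1, -0.023 to 0.18 for Cdkn1a and -0.074 to 0.10 for Gadd45a. For Cdkn1a with propiconazole at 100 uM it gave -0.10 to 0.10. On the values as deposited Ccng1 with propiconazole at 30 uM was 0.41 above DMSO, against 0.04 after normalization. That group holds the array of wide spread, Rs293. Its SD of Ccng1 was 0.739 as deposited and 0.0267 after normalization. The 2 or 3 arrays per group limit what could be called.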

Other observations

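Outside the p53 lists, stress transcription genes and hepatocyte markers also differed at 100 uM propiconazole, given here as a description. Of 13 stress genes, all above the filter, 2 were called higher, Ddit3, a factor of the endoplasmic reticulum stress response (0.76, SE 0.100), and its target Trib3 (0.40, SE 0.130), where 6.37% of all genes were. With triadimefon and myclobutanil at 100 uM 0 of 13 were called without the block, where 1.83% and 1.21% of all genes were. With the block 4 rose with triadimefon, Hmox1, which encodes haem oxygenase (0.72), Ppp1r15a (0.40), Ddit3 (0.31) and Trib3 (0.27), where 6.16% of all genes did. With myclobutanil 3 rose, Hmox1 (0.72), Ppp1r15a (0.34) and Ddit3 (0.33), where 5.05% of all genes did. Of the 14 hepatocyte markers tested, 3 secreted proteins were called lower with propiconazole, Ahsg (-0.33), Ambp (-0.34) and Rbp4 (-0.39), where 5.6% of all genes were lower. With triadimefon Ahsg (-0.24, SE 0.0564, limma adjusted p = 0.0215) and Ambp (-0.18, SE 0.0484, limma adjusted p = 0.0488) fell, where 0.963% of all genes did; on the values as deposited these differences were -0.06 and -0.01.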
